A study of Mus musculus with 6 samples.

Results

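The genes described here are 43 genes of the cell division cycle and of DNA replication, measured in whole mouse embryos that differ in the transcription factor gene Stat3. They were taken from a list of symbols, by matching the accession of every gene probe on the array to the symbol, and all 43 were found, on 54 probes. They fall into 21 genes that act in G1 or S phase and 22 that act in G2 or mitosis. Of the probes, 53 were well above background on all arrays, and none was lost to a filter on dim signals, so the 43 genes stand within 24571 tested in all.

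Total RNA of 6 embryos, labelled as 12 days old, was hybridised to 1-colour Agilent arrays, 1 array per embryo. The groups were 2 wild-type embryos (Stat3 wt/wt), 2 heterozygous embryos (mut/wt) and 2 homozygous embryos (mut/mut) of the STAT3-K177K180R allele, whose name gives arginine at 2 lysine positions. The labels name no promoter or Cre that would limit the allele to a cell type, and they say that the embryos shared a womb but also that 2 independent experiments were done per group. The wild-type embryos carry the words "wild type mutant" in their genotype label and were taken as wild type. Neither strain nor number of dams is stated in the labels, and the extraction protocol speaks of tumor tissue where the other labels say embryos.

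The 2 homozygous arrays were scanned apart from the other 4, and their negative control spots read 43.5 and 48 against 26 to 27, so scan and homozygous genotype cannot be told apart. Between 70.7% and 77.3% of probes were well above background per array, and the 75th percentile of signal ran from 785 to 1263. Markers of liver, cartilage, neurons and neural progenitors were well above background on all arrays, as were 9 of 10 muscle markers and 8 of 10 erythroid markers (Hbb-b1 and Ahsp were not kept). The remaining muscle marker, Acta1, had no value in homozygous replicate 1. Stat3 itself was at 0.81 in both wild-type embryos, at 1.07 and 0.82 in heterozygotes, and at 1.38 and 1.09 in homozygotes, as log2 signal relative to the 75th percentile of the array, the scale used throughout. A change of residues leaves the mRNA in place, so these values do not check the genotypes. With 2 embryos per genotype and no record of separate litters, p-values measure only the spread between these samples.

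A dividing cell passes G1, copies its DNA in S phase, and separates the copies in mitosis. In G1, cyclins D and E with their kinases release E2F factors, which switch on the genes for DNA synthesis. A ring of MCM proteins loaded by Cdc6 and Cdt1 then unwinds DNA at replication origins. In G2 cyclins A and B with the kinase Cdk1 drive entry into mitosis, where Aurora and Polo kinases build the spindle, the checkpoint kinases Bub1 and Ttk watch the kinetochores, and Cdc20 triggers the exit. Most mitotic genes are transcribed late in the cycle, through promoters with a CHR element and boxes bound by NF-Y. At midgestation much of the embryo divides rapidly, and STAT3 is known in other settings to activate Ccnd1 and Birc5.

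Some of the promoters hold the elements that this background describes, and others hold none of them. RefSeq promoter sequences of the GRCm38.p6 assembly were at hand for 34 of the 43 genes, 17 of each class, and the 250 bases before the start of each gene were searched on both strands. An E2F motif (TTTGGCGC, TTTCCCGC, TTTCGCGC or TTTGCCGC) lay in 29.4% of S-phase genes, 5.88% of mitotic genes and 1.91% of all 27025 genes with a promoter. A CHR (TTTGAA) lay in 35.3% of mitotic genes, 11.8% of S-phase genes and 16.3% of all. An NF-Y box (CCAAT) lay in 88.2% of mitotic genes, 52.9% of S-phase genes and 34.5% of all. A STAT motif (TTCNNNGAA) lay in 1 of the 34, Mcm5, against 7.18% of all genes. The letters of a CHR can lie inside a STAT motif, other motifs can share bases at their ends, and a match describes letters only.

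**Figure D1:**
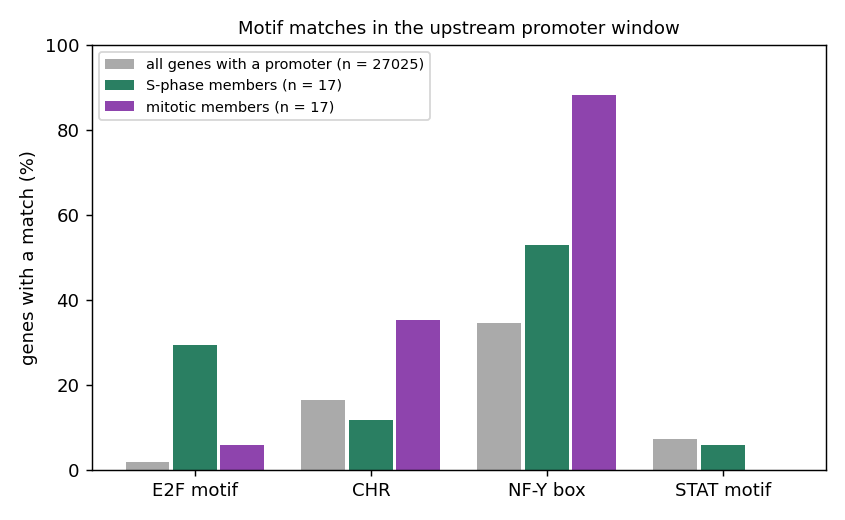
Share of genes, in percent, with at least 1 match to each motif in the 250 bases before the gene start, for all 27025 genes with a promoter, 17 S-phase genes and 17 mitotic genes. The E2F motif was most frequent in the S-phase genes (29.4%) and the NF-Y box in the mitotic genes (88.2%).

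Of the promoters, 5 are shown, with all matches to the E2F motif, the CHR and the NF-Y box in capitals, read 5′ to 3′ on the strand of the gene. They hold genes that share an element but differed in opposite directions between homozygous and wild-type embryos. With an E2F motif Mcm7 rose and Cdc6 fell, and with NF-Y boxes Cdc20 and Ccnb2 rose and Ttk fell. A second probe of Cdc6 (−0.43) did not pass. The directions were not evenly split among all called genes searched. Mcm5 also rose with E2F motifs, and Aurka, Mcm5, Mcm7 and Rrm2 also rose with NF-Y boxes. Ttk was the only called gene with NF-Y boxes that fell. Ccnb1, not shown, rose and holds 2 NF-Y boxes and no CHR. Mcm7 (chr5:138171884-138172133, minus strand) and Cdc6 (chr11:98907901-98908150, plus strand) each hold 1 E2F motif, which begins 165 and 138 bases before the start, and Mcm7 also holds 2 NF-Y boxes. Cdc20 (chr4:118437344-118437593, minus strand) and Ccnb2 (chr9:70421555-70421804, minus strand) each hold 1 CHR, with 2 and 3 NF-Y boxes. Ttk (chr9:83834439-83834688, plus strand) holds 2 NF-Y boxes and no CHR.
Mcm7: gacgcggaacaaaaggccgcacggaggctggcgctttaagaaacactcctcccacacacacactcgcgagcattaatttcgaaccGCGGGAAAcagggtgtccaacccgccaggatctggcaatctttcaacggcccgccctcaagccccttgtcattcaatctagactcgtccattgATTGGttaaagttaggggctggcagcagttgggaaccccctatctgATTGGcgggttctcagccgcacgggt
Cdc6: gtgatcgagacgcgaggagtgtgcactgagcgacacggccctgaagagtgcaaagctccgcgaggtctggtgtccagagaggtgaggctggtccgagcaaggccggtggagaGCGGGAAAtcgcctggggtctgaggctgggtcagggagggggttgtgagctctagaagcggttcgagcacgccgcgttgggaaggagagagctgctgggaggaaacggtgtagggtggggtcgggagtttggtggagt
Cdc20: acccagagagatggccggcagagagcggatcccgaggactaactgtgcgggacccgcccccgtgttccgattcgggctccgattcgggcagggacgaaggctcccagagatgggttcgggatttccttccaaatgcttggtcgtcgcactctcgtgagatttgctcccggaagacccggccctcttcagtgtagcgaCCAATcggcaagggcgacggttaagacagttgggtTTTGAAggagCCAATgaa
Ccnb2: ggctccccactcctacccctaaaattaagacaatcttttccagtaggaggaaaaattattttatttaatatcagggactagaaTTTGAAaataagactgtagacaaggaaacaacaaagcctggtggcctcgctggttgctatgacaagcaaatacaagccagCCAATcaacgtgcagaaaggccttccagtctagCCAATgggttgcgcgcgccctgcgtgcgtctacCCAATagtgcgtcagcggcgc
Ttk: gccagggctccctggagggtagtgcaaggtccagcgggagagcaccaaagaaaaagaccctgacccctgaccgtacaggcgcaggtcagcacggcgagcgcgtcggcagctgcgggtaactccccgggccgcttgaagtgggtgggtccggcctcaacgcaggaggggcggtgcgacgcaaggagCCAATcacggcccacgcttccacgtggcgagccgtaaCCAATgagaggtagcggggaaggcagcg

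Homozygous embryos were compared with wild-type embryos first. Tyms and Cdc20 rose about as much as each other, 2.11-fold and 2.10-fold, and Ccnb2 and Rrm2 rose by less, while Aurkb, Cdc6 and Ttk fell. Of the 43 genes, 10 rose, 3 fell and 30 did not pass limma's test (adjusted p below 0.05 over all genes). The called share of 30.2% lay beside 29% of all genes tested, so the number of calls is near the background. By direction, 23.3% rose against 14.3% of all genes, and 6.98% fell against 14.7%. The values of homozygous and wild-type embryos did not overlap for 22 genes higher and 7 lower in homozygotes, beside 39.4% and 30.1% of all genes. The difference was above 0 for 29 of the 43 (67.4%) against 56.4% of all genes, and its median was 0.25 against 0.08 (log2). With normexp background correction and the scaling left unchanged, 14 of the 43 rose and 3 fell. In that fit the median of all genes moved to 0.19, and the share of rises among all called genes from 49.2% to 67.4%. With normexp correction and quantile normalization 14 also rose and 3 fell. There the median of all genes was 0.04 and the share of rises among all called genes 50.5%. In bulk RNA, fewer cells of a type and less RNA per cell cannot be told apart.

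Among G1 regulators, cyclin D1 (Ccnd1), which carries growth signals to the cycle, stood at 1.99 and 2.06 in wild type, 2.12 and 1.95 in heterozygous embryos, and 2.45 and 2.52 in homozygous embryos. Both homozygous embryos lay above the other 4, by 0.46 ± 0.13 (log2 difference from wild type ± SE; 2 embryos of each genotype; adjusted p = 0.0407 by limma). Cyclin E1 (Ccne1), which starts S phase with Cdk2, read 2.91 and 2.73, 2.85 and 2.89, and 3.54 and 3.21 in the same order of genotypes. It too was highest in both homozygous embryos, by 0.55 ± 0.16 over wild type (adjusted p = 0.0440). Cyclin D3 (Ccnd3) read 3.80 and 3.74, 3.86 and 3.74, and 4.25 and 3.78, so 1 homozygous embryo stood out and the other lay among the rest. Ccnd2, Ccne2, Cdk2 and E2f1 also did not pass, with differences from −0.05 (Ccnd2) to 0.30 (E2f1). The calls of both cyclins rested on small margins. That of Ccnd1 held only without homozygous replicate 1 and that of Ccne1 only without homozygous replicate 2 when single arrays were left out, with differences of 0.43 to 0.50 and of 0.39 to 0.72.

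The Mcm2 to Mcm7 subunits form 1 ring, yet did not move alike. Mcm5 stood at 2.22 and 1.95 in wild type, 2.01 and 2.01 in heterozygous embryos, and 2.67 and 2.52 in homozygous embryos, a rise of 0.51 ± 0.15 (adjusted p = 0.0436). Mcm7 read 3.55 and 3.46, 3.39 and 3.45, and 3.94 and 3.95, a rise of 0.45 ± 0.12 (adjusted p = 0.0374). Both were above all other embryos in both homozygous embryos. Of the 6 subunits, 5 were higher in both homozygous embryos than in any other, beside 32.5% of all genes, and Mcm3 (0.27), Mcm4 (0.47, adjusted p = 0.0505) and Mcm6 (0.25) did not pass the test. Mcm6 stood at 3.88 and 4.05 in wild type, 3.74 and 3.93 in heterozygous embryos, and 4.24 and 4.18 in homozygous embryos. Mcm2 read 2.70 and 2.74, 2.76 and 2.76, and 2.50 and 2.23, so it lay below the other 4 embryos in both homozygous embryos (−0.36, adjusted p = 0.0997). The loaders of the ring differed as well. Cdc6 stood at 0.53 and 0.64 in wild type, 0.23 and 0.70 in heterozygous embryos, and −0.57 and −1.29 in homozygous embryos, a fall of −1.51 ± 0.27 (2.85-fold lower, adjusted p = 0.0108), while Cdt1 was at 0.25 and did not pass. With single arrays left out, the call of Mcm5 held only without homozygous replicate 2 (0.37 to 0.64), that of Mcm7 only without homozygous replicate 1 (0.40 to 0.49), and that of Cdc6 was lost without either wild-type array (−1.87 to −1.15).

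Of the enzymes that supply and join nucleotides, Tyms, thymidylate synthase, stood at −1.70 and −1.77 in wild type, −1.59 and −1.62 in heterozygous embryos, and −0.71 and −0.60 in homozygous embryos. The homozygous embryos lay well above the rest, by 1.08 ± 0.12 (adjusted p = 0.00259). Rrm2, a subunit of ribonucleotide reductase, read 3.40 and 3.44, 3.31 and 3.53, and 4.19 and 4.10, a rise of 0.73 ± 0.14 (limma's adjusted p = 0.0120). Its partner Rrm1 read 2.28 and 2.29, 2.13 and 2.33, and 2.17 and 2.28, and the genotypes overlapped (−0.06). Pcna, the sliding clamp of the polymerases, read 4.26 and 4.37, 4.18 and 4.35, and 4.58 and 4.56 (0.25, adjusted p = 0.184). The flap nuclease Fen1 (0.42, adjusted p = 0.0724) and thymidine kinase Tk1 (0.16) did not pass. Tyms kept its call without any single array (1.02 to 1.13), and Rrm2 lost it without either wild-type array (0.68 to 0.77).

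Among mitotic cyclins and kinases, cyclin B2 (Ccnb2) stood at 1.76 and 1.75 in wild type, 1.67 and 1.84 in heterozygous embryos, and 2.76 and 2.60 in homozygous embryos, a rise of 0.92 ± 0.13 (adjusted p = 0.00558). Cyclin B1 (Ccnb1), which activates Cdk1, read 2.55 and 2.55, 2.36 and 2.50, and 3.16 and 3.13, a rise of 0.60 ± 0.12 (adjusted p = 0.0169). Homozygous embryos were apart from the rest for both cyclins. The Aurora kinases differed in opposite directions. Aurka, of the spindle poles, read 1.71 and 1.83, 1.61 and 1.76, and 2.26 and 2.17, a rise of 0.45 ± 0.13 (adjusted p = 0.0466). Aurkb, of the chromosomal passenger complex, read −1.06 and −0.98, −0.78 and −0.82, and −2.24 and −3.48, a fall of −1.84 ± 0.37 (3.58-fold lower, adjusted p = 0.0146). The homozygous embryos were the lowest for Aurkb but lay 1.23 apart from each other, the widest such gap among the 43 genes. The Polo kinase Plk1 read 2.62 and 2.58, 2.56 and 2.55, and 3.16 and 2.92 (0.44, adjusted p = 0.0529), and Birc5, or survivin, a partner of Aurkb, read 3.61 and 3.67, 3.37 and 3.62, and 3.86 and 3.92 (0.25, adjusted p = 0.211). Ccna2 (0.41), Cdk1 (−0.22) and the phosphatase Cdc25c (−0.07) did not pass either. Leaving out wild type replicate 2 ended the calls of Ccnb2 (0.84 to 1.00 over all single arrays left out), Ccnb1 (0.58 to 0.61) and Aurkb (−2.46 to −1.23), leaving out wild type replicate 1 those of Ccnb1 and Aurkb, and leaving out any array that of Aurka (0.39 to 0.51).

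At the spindle checkpoint, Cdc20, the activator of the anaphase-promoting complex, stood at 2.87 and 2.83 in wild type, 2.96 and 2.91 in heterozygous embryos, and 4.00 and 3.84 in homozygous embryos. This rise of 1.07 ± 0.13 (adjusted p = 0.00295) held without any single array (0.99 to 1.15). Ttk, the Mps1 kinase that recruits checkpoint proteins, read −2.28 and −2.25, −2.58 and −2.12, and −3.31 and −2.81, a fall of −0.79 ± 0.22 (adjusted p = 0.0421). Its call was lost without either wild-type array and without homozygous replicate 1 (−1.04 to −0.54). The other checkpoint kinases, Bub1 (−0.08) and Bub1b (−0.14), did not pass, with homozygous values within or near the range of the heterozygous embryos.

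At the brightest probe of each gene, genes of the centromere, spindle and chromosome had no call against wild type. The kinetochore motor Cenpe stood at 1.96 and 2.06 in wild type, 1.82 and 1.97 in heterozygous embryos, and 2.34 and 2.36 in homozygous embryos (0.34, adjusted p = 0.0888), higher in both homozygous embryos than in the others. The centromeric histone Cenpa (−0.03) and Cenpf (−0.16) overlapped. The cytokinesis motor Kif20a read 1.66 and 1.80, 1.56 and 1.68, and 1.77 and 1.87 (0.09), and the spindle genes Kif11, Tpx2 and Nusap1 had differences from 0.25 to 0.37, none past the threshold. Top2a, which untangles DNA, was at −0.29. Mki67, the proliferation antigen Ki-67, read 3.94 and 3.99, 3.54 and 4.05, and 3.22 and 3.43 at its brighter probe, so both homozygous embryos were lowest (−0.64, adjusted p = 0.0520).

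**Figure D2:**
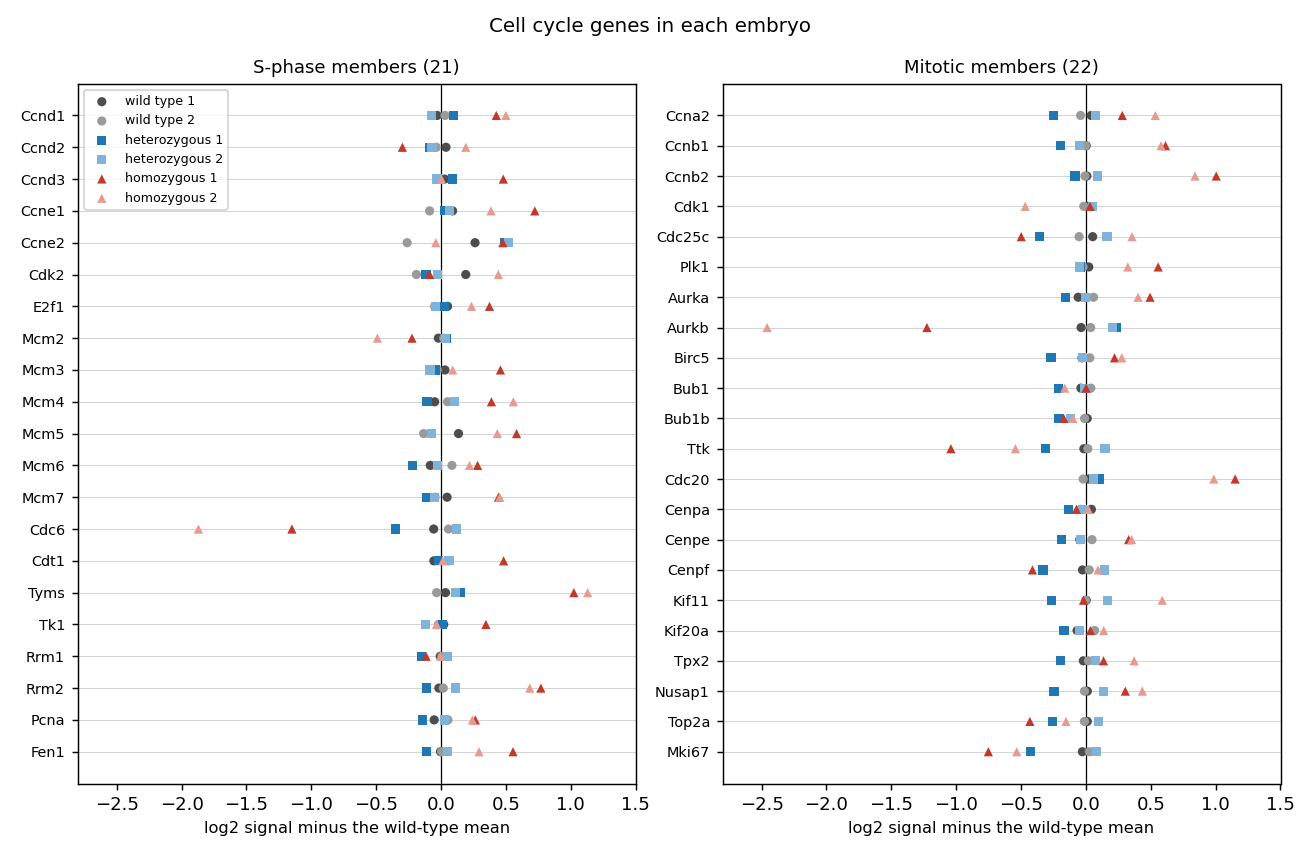
Normalized log2 signal of each S-phase gene (left) and mitotic gene (right) in each of the 6 embryos, minus the mean of the 2 wild-type embryos, with 1 point per embryo. Both homozygous embryos (triangles) lay above the other 4 for 22 genes and below them for 5, and Aurkb and Cdc6 lay farthest to the left.

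Heterozygous embryos came next in the order of the allele, and none of the 43 genes passed limma's test against wild type. No gene of the 24569 tested passed there, a background of 0%, and an unadjusted p below 0.05 was reached by 0 of the 43 and by 552 of all genes. The smallest unadjusted p was that of Ccne2, which stood at −1.70 and −2.23 in wild type and −1.47 and −1.44 in heterozygous embryos, a difference of 0.51 ± 0.24 (limma's adjusted p = 1.00). Its homozygous values of −1.49 and −2.00 lay back within the range of the wild type and heterozygous embryos. Bub1b read 0.88 and 0.86 against 0.66 and 0.75 (−0.16 ± 0.12), and Birc5 was at −0.15 ± 0.14. The difference was above 0 for 12 of the 43 genes, beside 51.6% of all genes, and values did not overlap for 6 genes higher and 6 lower, beside 14.8% and 12%. The median difference was −0.03 for the S-phase genes and −0.08 for the mitotic genes, beside 0.00 for all genes. Both medians changed sign without heterozygous replicate 1 (0.03 and 0.07), and without replicate 2 the mitotic median was −0.20. Each of these values is the median of the single heterozygous embryo left.

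Homozygous embryos were then compared with heterozygous embryos, a comparison that shares the 2 homozygous arrays with the one against wild type. Of the 43 genes, 11 rose, 2 fell and 30 did not pass, beside 24% of all genes called, 10.6% higher and 13.4% lower. The difference was above 0 for 33 genes, beside 56.2% of all, and values did not overlap for 23 genes higher and 7 lower, beside 35.7% and 28.3%. Cdc20 (0.99 ± 0.13, limma's adjusted p = 0.00452), Tyms (0.95 ± 0.12, adjusted p = 0.00465), Ccnb2 (0.92 ± 0.13) and Rrm2 (0.73 ± 0.14) rose, where the values against wild type were 1.07, 1.08, 0.92 and 0.73. Ccnb1 was at 0.72 against heterozygous and 0.60 against wild-type embryos, Mcm5 at 0.58 and 0.51, Mcm7 at 0.53 and 0.45, Aurka at 0.53 and 0.45, and Ccnd1 at 0.45 and 0.46. Aurkb fell by −2.06 ± 0.37 (adjusted p = 0.0123) and Cdc6 by −1.39 ± 0.27 (adjusted p = 0.0160). Plk1 (0.48, adjusted p = 0.0456) and Cenpe (0.46, adjusted p = 0.0458) passed here, while Ccne1 (0.51, adjusted p = 0.0628) and Ttk (−0.71, adjusted p = 0.0638) did not. With normexp correction and the scaling left unchanged, 16 rose and 3 fell. In that fit the median of all genes moved from 0.07 to 0.24, and the share of rises among all called genes from 44.3% to 75.6%. With normexp correction and quantile normalization 15 rose and 2 fell. There the median of all genes was 0.04 and the share of rises among all called genes 49.6%. Whether these genes differ more from one genotype than from the other was not tested. The 11 rises became 2 without heterozygous replicate 1 and 5 without heterozygous replicate 2 or either wild-type array, and the 2 falls became 0 without either heterozygous array and 4 without homozygous replicate 1.

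The S-phase and mitotic genes were set side by side in each embryo, by the median over the genes of the difference from the wild-type mean. For the 21 S-phase genes it was 0.43 and 0.23 in homozygotes, and −0.07 and 0.03 in heterozygotes. For the 22 mitotic genes it was 0.03 and 0.30 in homozygotes, and −0.20 and 0.07 in heterozygotes. Homozygous replicate 1 thus had the higher S-phase median and replicate 2 the higher mitotic median, and heterozygous replicate 1 had the lowest mitotic median of the 6 embryos. Without homozygous replicate 2 the mitotic difference from wild type dropped from 0.17 to 0.03, and without replicate 1 it was 0.30. The S-phase difference of 0.25 became 0.43 without homozygous replicate 2. These values restate the medians of the single homozygous embryo left. With the mean of all probes of a gene the mitotic difference was 0.06. The homozygous embryos differed from each other by a median of 0.22 per gene, beside 0.06 in wild type and 0.15 in heterozygous embryos, and by 0.24, 0.11 and 0.17 over all genes. Of the S-phase genes, 6 rose and 1 fell against wild type (33.3% called), and of the mitotic genes 4 rose and 2 fell (27.3%). Both shares were near the 29% of all genes. Rises made up 28.6% of the S-phase and 18.2% of the mitotic genes, beside 14.3% of all genes. Falls made up 4.76% and 9.09%, beside 14.7%. Both homozygous embryos lay above the other 4 for 22 of the 43 genes and below them for 5, beside 32.5% and 25.6% of all genes.

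**Figure D3:**
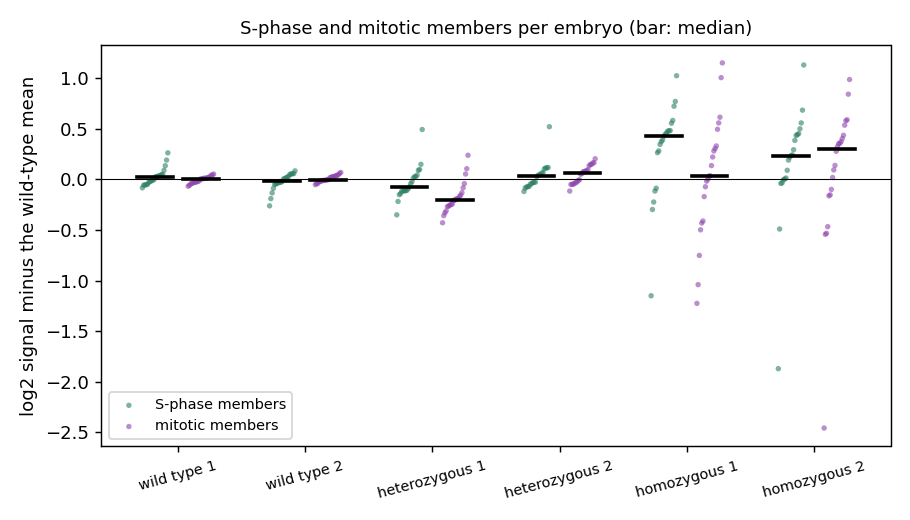
Log2 signal minus the wild-type mean of 21 S-phase genes (green) and 22 mitotic genes (purple) in each embryo, 1 point per gene, with the median as a bar. In the homozygotes the S-phase medians lay at 0.43 and 0.23, and the mitotic medians at 0.03 and 0.30.

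Several genes were measured by more than 1 probe, and the probes often differed. Of the 54 probes, 12 rose and 5 fell against wild type with every probe tested, beside 27.7% of all probes called, and against heterozygous embryos 11 rose and 4 fell, beside 22.7%. The 8 genes with several probes had 19, and in 3 of these genes the probes differed in sign. Mki67 had 2 probes to the same transcript. The brighter fell by −0.64 (limma's adjusted p = 0.0539 with every probe tested), and the other stood at 3.47 and 3.45 in wild type, 3.23 and 3.57 in heterozygous embryos, and 4.13 and 4.24 in homozygous embryos, a rise of 0.72 ± 0.16 (adjusted p = 0.0199). The probes thus placed the homozygous embryos lowest and highest. Cdk1 was at −0.22 at its brightest probe, at −1.52 ± 0.31 at the next (0.00 and −0.19 in wild type, −1.12 and −2.10 in homozygous embryos, adjusted p = 0.0157) and at 0.27 at its dimmest.

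Birc5 was at 0.25 and 0.27 at the 2 probes with the highest mean over the 6 arrays. At the remaining probe, which shares the accession of the brightest, it fell by −1.54 ± 0.24 (limma's adjusted p = 0.00678). That remaining probe stood at 0.44 and 0.30 in wild type, 0.01 and 0.50 in heterozygous embryos, and −1.43 and −0.91 in homozygous embryos. It was the dimmest only in the homozygous embryos, as the second probe read −0.20 and −0.21 in wild type. For Cdc6 the fall of −1.51 stood beside −0.43 at a second probe of the same transcript (adjusted p = 0.381), which stood at −1.97 and −1.62 in wild type, −2.90 and −1.80 in heterozygous embryos, and −2.14 and −2.32 in homozygous embryos. Here the homozygous embryos lay below wild type but within the heterozygous range. The rise of Ccnb1 at 0.60 stood beside 0.12 and 0.09 at its other probes. Ccnd3 rose at its second probe (0.53, adjusted p = 0.0462), and both probes of Ccne1 (0.55 and 0.38) and of Tpx2 (0.25 and 0.51) were above wild type. Tyms, Cdc20, Ccnb2, Rrm2, Aurkb, Aurka, Ttk, Ccnd1, Mcm5 and Mcm7 had 1 probe each, so no second probe bears on their calls.

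**Figure D4:**
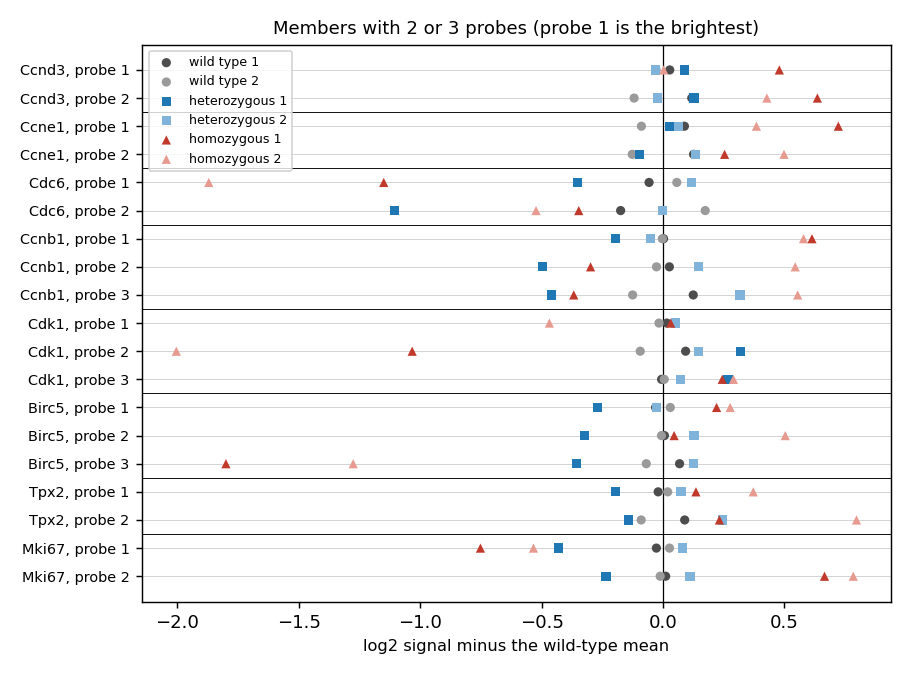
Log2 signal minus the wild-type mean for 19 probes of the 8 genes with more than 1 probe, with 1 point per embryo and probes ordered by mean brightness over all embryos within a gene. The 2 probes of Mki67 place the homozygous embryos on opposite sides of wild type (−0.64 and 0.72), and 1 probe each of Cdc6, Cdk1 and Birc5 lies far to the left in both homozygous embryos.

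The calls against wild type were set against every alternative way of processing. Tyms and Cdc20 passed in 15 of 15 alternatives, with differences of 0.94 to 1.13 and 0.99 to 1.15 and adjusted p-values of limma's test between 0.000475 and 0.0342 and between 0.000378 and 0.0359. Ccnb2 passed in 14 of 15, Rrm2 and Aurkb in 13 of 15, and Cdc6 and Ccnb1 in 12 of 16. Ttk passed in 9 of 15, Mcm5 in 8 of 15, Ccne1 in 8 of 16, Mcm7 in 7 of 15, and Ccnd1 and Aurka in 4 of 15. A further 11 of the 43 genes passed in at least 1 alternative and not in the reported fit. Without wild type replicate 1 there were 3 rises and 0 falls among the 43, and without wild type replicate 2 there were 2 rises and 0 falls. Calls over all genes dropped as well, from 7122 to 2241 and 1950. Such a fit leaves 1 wild-type embryo, which is assumed to vary like the other genotypes. With only the genotypes compared 5 rose and 4 fell. Leaving out either heterozygous array gave this same fit, since a lone heterozygous array adds no estimate of spread. The numbers of alternatives above therefore count this fit more than once.

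**Figure D5:**
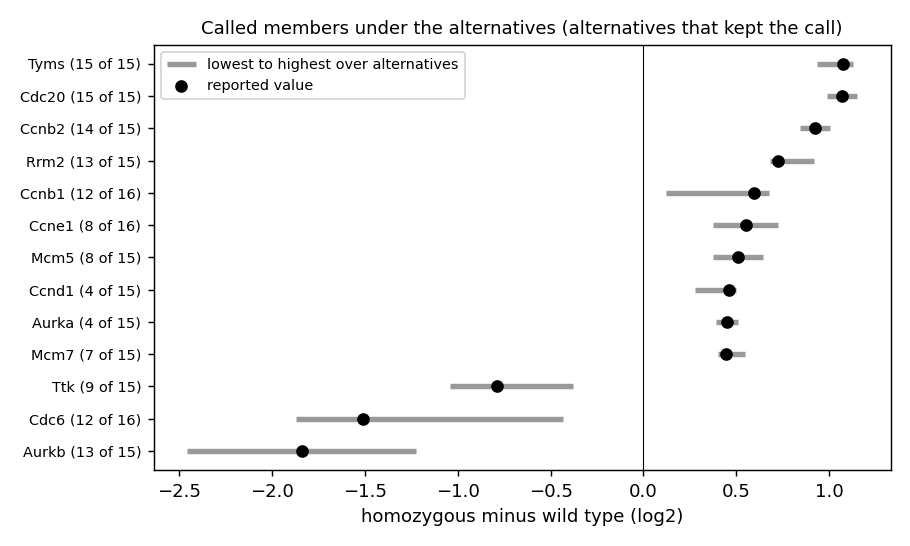
Difference between homozygous and wild-type embryos (log2) for the 13 genes called, as reported (point) and from the lowest to the highest value over the alternatives (bar), with the number of alternatives that kept the call. Leaving out either heterozygous array and using only the genotypes compared are the same fit, counted separately. Tyms and Cdc20 kept it in 15 of 15, and Ccnd1 and Aurka in 4 of 15.

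Other genes of the same processes were counted from lists of their own. Of 44 other replication genes, 5 rose and 3 fell in homozygous against wild-type embryos (median 0.06, beside 0.08 for all genes and 29% called). The replication fork protector Tipin (0.62, limma's adjusted p = 0.0153) and the origin recognition subunit Orc6 (0.57) rose, while the maintenance methyltransferase Dnmt1 (−0.77, adjusted p = 0.00779), the primase subunit Prim2 (−1.05) and Orc2 (−1.08) fell. Of 43 other mitotic genes tested, 9 rose and 4 fell (median 0.11). Cdca8, borealin of the chromosomal passenger complex (0.80, adjusted p = 0.0109), the cytokinesis factor Ect2 (0.61) and securin (Pttg1, 0.56) were among the rises. The spindle protein Dlgap5 (−0.80, adjusted p = 0.0140), the kinetochore subunit Spc24 (−0.66) and Ckap2 (−0.98) were among the falls.

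Of 15 inhibitors and pocket proteins tested, 5 rose and none fell (median 0.40), beside 14.3% of all genes higher, 14.7% lower and a median of 0.08. Among the rises were Btg1 (0.82, limma's adjusted p = 0.00870), the retinoblastoma gene Rb1 (0.69), the Cdk4 inhibitor Cdkn2c (0.65) and Rbl1 (0.70). Of 15 other G1/S regulators, Cdk6 (1.05, adjusted p = 0.00718) and E2f3 (0.42) rose and Tfdp2 (−0.76) fell. Against heterozygous embryos the counts were 5 and 3, 10 and 4, 5 and 0, and 1 and 0 in the same order of lists, beside 24% of all genes called.

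Markers of several cell types moved with the homozygous genotype. The summed signal of 8 hepatocyte markers, in units of the 75th percentile, was 138 to 147 in wild type, 127 to 156 in heterozygous and 214 to 228 in homozygous embryos. Of these, 4 rose and 0 fell against wild type. Ttr (−0.26) did not pass, but it lay below the other 4 embryos in both homozygous embryos. Here and for the markers below, 14.3% of all genes rose and 14.7% fell against wild type. The sum of 8 neutrophil and macrophage markers was at most 16.9, at most 21.4 and at least 22.4. Against wild type 6 of them rose, while the macrophage markers Csf1r (0.22) and Adgre1 (−0.02) did not pass. Cd177, among the 6, was well above background on only 2 arrays, the homozygous ones. It was kept through these arrays, so its rise was favoured by the filter. The sum of 8 erythroid markers was at most 202, at most 171 and at least 220.2, but 0 of the 8 passed, and Hba-x (−0.24) and Hbb-bh1 (−0.12) were below wild type. For 5 of 7 trophoblast markers the sum was 49.8 to 57.3, 40.7 to 58.0 and 8.35 to 17.3. The trophoblast sum followed Gcm1 (5.63 and 5.83 in wild type, 4.08 and 2.97 in homozygous embryos), while the other 4 markers, Prl3d1 (0.77), Prl3b1 (0.52), Psg19 (0.43) and Hand1 (0.39), were higher in both homozygous embryos than in the other embryos, and only Prl3d1 of these 4 passed the test. Tpbpa and Ctsq were not well above background on both arrays of any genotype. The sums of neural progenitor markers (47.0 to 49.0 in wild type and 44.0 to 48.6 in homozygous embryos) and of neuron markers overlapped between the genotypes, although Vim (−0.46), Elavl3 (−1.87) and Nefm (−0.54) fell. Of the 8 progenitor markers, 7 were above wild type, with Vim the exception (median 0.37, beside 0.08 for all genes), and 0 rises passed. Of the 10 neuron markers, 6 were above wild type (median 0.13), beside 56.4% of all genes, and 0 rises passed. The muscle sum was 53.7 to 56.3 in wild type, 61.5 to 75.5 in heterozygous and 62.6 to 63.6 in homozygous embryos, and Myog (0.59) was the 1 of 10 markers that rose. Acta1 had no value in homozygous replicate 1, so the sum of that embryo (62.6) lacks this marker. The mesenchyme genes Prrx1 (−1.72) and Twist1 (−1.23) fell, while the cartilage and mesenchyme sums overlapped. In the same list Col2a1 (0.61), Col1a2 (0.27) and Acan (0.06) were above wild type, and Sox9 (−0.16) and Col1a1 (−0.41) were below. None of these passed the test. The part of cell type proportions in the differences of the 43 genes was not tested.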

How the data were processed

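Per the file headers, the authors made the deposited scanner files with Agilent Feature Extraction 11.0.1.1 (array annotation mm9), which gives a background-subtracted, detrended intensity for each spot with no normalization between arrays. The authors' deposited table of log2 values, whose columns share a median of 6.73, was used as an alternative, and its normalization is not given in the sources used here. Control and outlier spots were left out, spots of a probe averaged, the intensity log2 transformed and centred on each array's 75th percentile. A probe was kept if both arrays of some genotype had it well above background (29905 of 39429). Accessions were matched to symbols through RefSeq (GRCm38.p6, names only; 27234 probes, 69.1%), and a gene was represented by its brightest kept probe.

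All 6 arrays were fitted in 1 model of genotype with limma 3.58.1 (R 4.3.3; 3 residual and 3.33 prior degrees of freedom). The threshold was a p of 0.05 after Benjamini-Hochberg adjustment over all genes, with every probe tested in a second fit. The fit was tested on simulated data. Alternatives changed background correction, normalization, filter, probe choice, arrays and model. A planned correction for scan was not made, since the second scan held homozygous arrays alone. The 43 genes, their classes and all lists were chosen with earlier results of these data known. Values of every embryo are given for genes called in a comparison, for the smallest p-values of each comparison and for the brightest gene of each role, and up to 4 genes per direction are named from other lists. Second probes were picked for description with their values known.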

Additional observations from a re-analysis of the deposited data

How the results depend on the processing

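The counts below are of the 43 genes under limma with 1 choice changed. Against wild type, 13 were called (10 higher, 3 lower). With no filter on dim probes there were 7 (5 higher), and among the 8 genes with a second brightest probe 2 (1 higher, 1 lower, with 971 called of all genes). With only the genotypes compared, 5 were higher. Leaving out single arrays gave 2 to 15 calls, 2 to 11 higher and 0 to 4 lower, and 1950 to 8843 of all genes. Against heterozygous embryos, 13 were called (11 higher, 2 lower). No filter gave 7 (5 higher), the mean of probes 1 lower, the second brightest probe 2 (1 higher, 1 lower, with 760 of all genes), and only the genotypes compared 7 (5 higher, with 3253 of all genes). Leaving out single arrays gave 2 to 15 calls, 2 to 12 higher and 0 to 4 lower, and 1691 to 7812 of all genes. Heterozygous against wild type stayed at 0 of the 43 throughout, and at 0 to 6 of all genes.

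At the second brightest probe Mki67 turned to 0.72 against wild type and 0.79 against heterozygous embryos, and Cdc6 to 0.12 against heterozygous embryos. Normexp correction with the 75th percentile called 11331 of all genes against heterozygous embryos, moved the median gene from 0.07 to 0.24 there and from 0.08 to 0.19 against wild type, and raised the share of higher calls against wild type from 49.2% to 67.4%, while the median of the S-phase genes was 0.26 and that of the mitotic genes 0.17. With the authors' table the S-phase median against wild type was 0.35, and with the mean of probes the mitotic median was 0.06. The cause was not tested.

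Replicate numbers did not pair the embryos (correlations of deviations of 0.01, −0.16 and 0.25). With the replicate number as a block, 8 of the 43 were higher and 4 lower against wild type, and 9 and 3 against heterozygous embryos. A limit of 2 arrays per genotype holds for every value.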
